A study of Mus musculus with 3 samples.

Results

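The immunoglobulin isotype genes described here are the 9 genes Ighm, Ighd, Igha, Ighg1, Ighg2b, Igkc, Iglc1, Iglc2 and Jchain, taken by name from the 23860 genes of the 2 single-cell tables of the series. Liver non-parenchymal cells of C57BL/6 J mice were captured on the BD Rhapsody system (the sample labels write of parenchymal cells), and each of 2 whole-transcriptome libraries gave unique molecular identifiers (UMIs), which count single captured mRNA molecules. The NCD library holds wild-type (WT) mice on a normal chow diet (NCD) according to the paper. But its sample title reads MCD, which in the paper stands for a methionine-choline deficient diet, and its table header names APAP0h. The diet of this library thus rests on the paper alone, and its table was tied to the sample by elimination. The HFHC pool holds WT and Chi3l1-/- mice on the high-fat, high-cholesterol (HFHC) diet in 1 library, and no cell was assigned to a genotype here. There is 1 library per group and thus no replicate: the diet cannot be told apart from the capture and the library, no difference was tested, and the intervals below cover counting error only.

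An antibody consists of heavy chains, whose constant region sets the isotype, and of light chains of the kappa or lambda type. Naive B cells make IgM and IgD from 1 heavy chain locus by alternative splicing, and class switching replaces that constant region by a downstream one, such as those of IgG or IgA. Plasma cells, the antibody-secreting end stage of the B lineage, give a large part of their mRNA to 1 heavy and 1 light chain, and Jchain encodes the joining chain that links IgM and IgA into polymers. In the liver, IgA plasma cells are known mainly for their exchange with the gut and the bile.

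On the mouse build GRCm38 the 5 heavy chain members lie on the minus strand of chromosome 12. Igha was annotated at chr12:113254830-113260236, Ighg2b at chr12:113302965-113307933, Ighg1 at chr12:113325240-113330523, Ighd at chr12:113406604-113416324 and Ighm at chr12:113418558-113422730. Igkc lies at chr6:70726435-70726966 on the plus strand, Iglc1 and Iglc2 at chr16:19061618-19062071 and chr16:19198396-19200351 on the minus strand, and Jchain at chr5:88519809-88527891 on the minus strand. All members but Jchain, a protein-coding gene, were annotated as immunoglobulin constant region genes.

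The coding ends of the secreted heavy chains show which isotypes can take up the joining chain. The sequences below are the last 60 coding bases of the secreted transcripts before the stop codon, from the GENCODE vM21 annotation of GRCm38, and capitals mark a cysteine codon in the next-to-last position, to which the joining chain is known to bind.
Ighm (last coding exon, minus strand, chr12:113420870-113420929): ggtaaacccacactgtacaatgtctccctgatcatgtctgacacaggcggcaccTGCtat
Igha (last coding exon, minus strand, chr12:113258771-113258830): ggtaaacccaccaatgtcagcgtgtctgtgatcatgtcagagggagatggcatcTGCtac
Ighg1 (last coding exon, minus strand, chr12:113328979-113329038): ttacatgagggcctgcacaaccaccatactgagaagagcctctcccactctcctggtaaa
Ighg2b (last coding exon, minus strand, chr12:113306392-113306451): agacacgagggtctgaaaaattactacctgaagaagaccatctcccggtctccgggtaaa
Ighm and Igha end in a tail with this cysteine codon, and Ighg1 and Ighg2b do not hold it.

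The lambda constant regions are shown because Iglc2 and Iglc3 are near-identical, so that their reads may be hard to keep apart, while Iglc1 differs more. The sequences below are the first 90 coding bases of each constant region, in its only coding exon, and capitals mark bases that differ from Iglc3, a gene outside the 9 that both tables hold.
Iglc1 (minus strand, chr16:19061980-19062069): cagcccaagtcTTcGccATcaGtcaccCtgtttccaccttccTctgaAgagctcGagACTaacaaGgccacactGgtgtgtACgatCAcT
Iglc2 (minus strand, chr16:19198761-19198850): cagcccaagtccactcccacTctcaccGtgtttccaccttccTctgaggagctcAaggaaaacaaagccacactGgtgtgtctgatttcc
Iglc3 (minus strand, chr16:19065590-19065679): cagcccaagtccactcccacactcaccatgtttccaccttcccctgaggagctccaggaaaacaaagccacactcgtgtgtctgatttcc
Over the whole coding part Iglc2 and Iglc3 were 96.5% identical (11 of 314 bases differed), and over the last 200 bases of their transcripts, near the captured end, 95.38%. Iglc1 and Iglc3 shared 75.72% of coding bases. Values of Iglc2 and Iglc3 are therefore uncertain one by one, since the counting could split their reads. Their counts did not go together in each cell. A plasma cell of the NCD library held 561 UMIs of Iglc2 and 8 of Iglc3, and 1 of the HFHC pool 70 and 726. Of the IgG genes, Ighg2b and Ighg2c shared 85.86% and Ighg1 and Ighg2b 77.81% of coding bases.

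In all, 30734 cells with 53720863 UMIs were deposited for the NCD library and 21601 with 71981673 for the HFHC pool. Those of 200 to 4000 genes and at most 25% mitochondrial UMIs were kept, which left 23346 of the first (median 1322.5 UMIs) and 19625 of the second (1622). Immunoglobulin genes and Jchain took 0.2484% of the kept UMIs in the NCD library, against 0.8216% in the HFHC pool, and 756 cell indices occurred in both libraries. Cells were clustered without any immunoglobulin gene or Jchain and named from marker lists that hold none of the 9 genes. B cells numbered 1373 in the NCD library, against 855 in the HFHC pool, and plasma cells 17 and 52. In either library 15 of 15 B cell markers were detected in at least 10% of B cells, and 17 of 17 plasma cell markers in at least 10% of plasma cells, which the naming itself largely set. Plasma cells were 1.223% of B and plasma cells together in the NCD library (exact binomial 95% interval 0.714 to 1.951) and 5.733% in the HFHC pool (4.311 to 7.451). With at most 10% mitochondrial UMIs these shares were 2.783% and 12.78%, where 15 and 51 plasma cells but only 524 and 348 B cells were left. With classes taken from the marker UMIs of each cell the shares were 4.227% and 11.12%, where an isotype could be given to 21 of 64 and 73 of 108 plasma cells.

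In the plasma cells, Igha led the heavy chains of the NCD library and Ighm those of the HFHC pool. Plasma cells of the NCD library held 8833 UMIs of Igha and 637 of Ighm, while those of the HFHC pool held 7225 of Igha and 55077 of Ighm. Scaled to counts per 1e6 UMIs of the class (CPM), Igha, the constant region of IgA, stood at 77328 (exact Poisson 95% interval 75723 to 78958) in the NCD library, against 11363 (11102 to 11628) in the HFHC pool. Ighm, that of IgM, stood at 5577 (5152 to 6027) and 86618 CPM (85896 to 87344), the opposite order. Ighg2b, a constant region of IgG, had 0 UMIs in the 17 plasma cells of the NCD library, where 3 UMIs would be 26.26 CPM, and 7456 CPM in the HFHC pool. Igkc, the kappa constant region, was the most abundant of the 9 in both, with 219911 and 244623 CPM. Together the immunoglobulin genes and Jchain held 34.52% of plasma cell UMIs in the NCD library, against 41.9% in the HFHC pool.

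**Figure D1:**
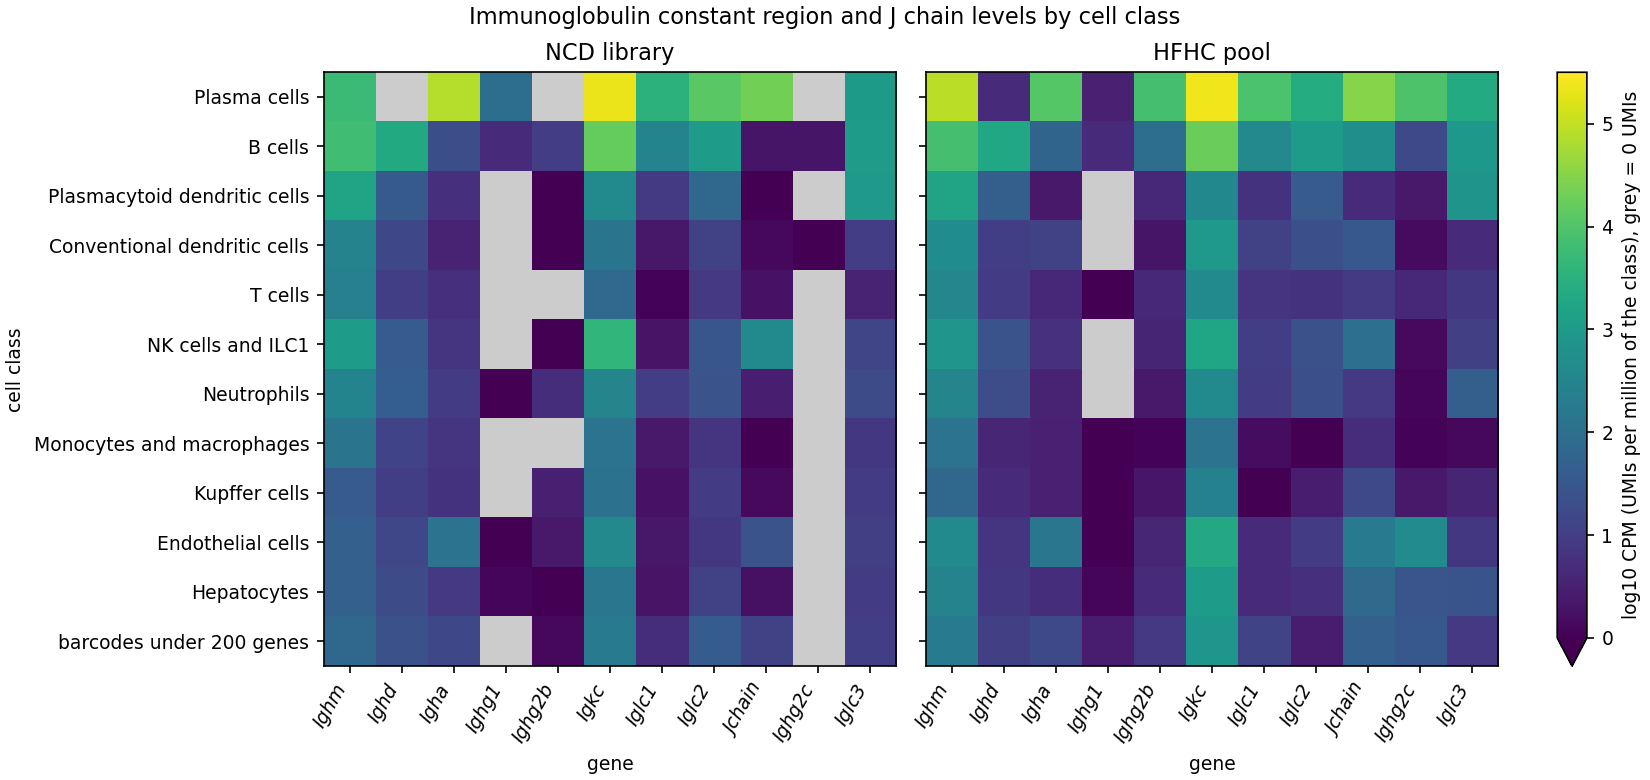
Levels of the 9 genes (columns) by cell class (rows) in each library, as log10 CPM in colour, with grey for 0 UMIs, values under 1 in the lowest colour, and Ighg2c and Iglc3 beside the 9. Plasma cells hold the highest Igkc and Jchain of the classes in both libraries. Among the heavy chain genes of plasma cells, Igha is highest in the NCD library and Ighm in the HFHC pool.

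Each plasma cell used 1 isotype almost alone. A cell was given an isotype when at least 10 heavy chain UMIs were present and 1 isotype held at least 70% of them, which all 69 plasma cells met. The share of the leading isotype was 96.89% or more in each NCD plasma cell and 89.96% or more in each cell of the HFHC pool. Of the 17 cells of the NCD library 15 used Igha (88.24%, exact binomial 95% interval 63.56 to 98.54), 2 used Ighm and 0 used an IgG gene, which allows an IgG share of up to 19.51% (upper end of the exact binomial interval). Of the 52 cells of the HFHC pool 43 used Ighm (82.69%, 69.67 to 91.77), 4 Igha (7.692%, 2.136 to 18.54) and 5 an IgG gene (9.615%, 3.196 to 21.03). The intervals of the IgA share of the 2 libraries did not overlap, nor did those of the IgM share, and the intervals of the IgG share did. Each interval covers the counting of cells of 1 library, and such cells are not replicates. The comparison of intervals is thus no test between the libraries. Diet, genotypes, mice and capture of the 2 libraries cannot be told apart behind the difference in isotypes.

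**Figure D2:**
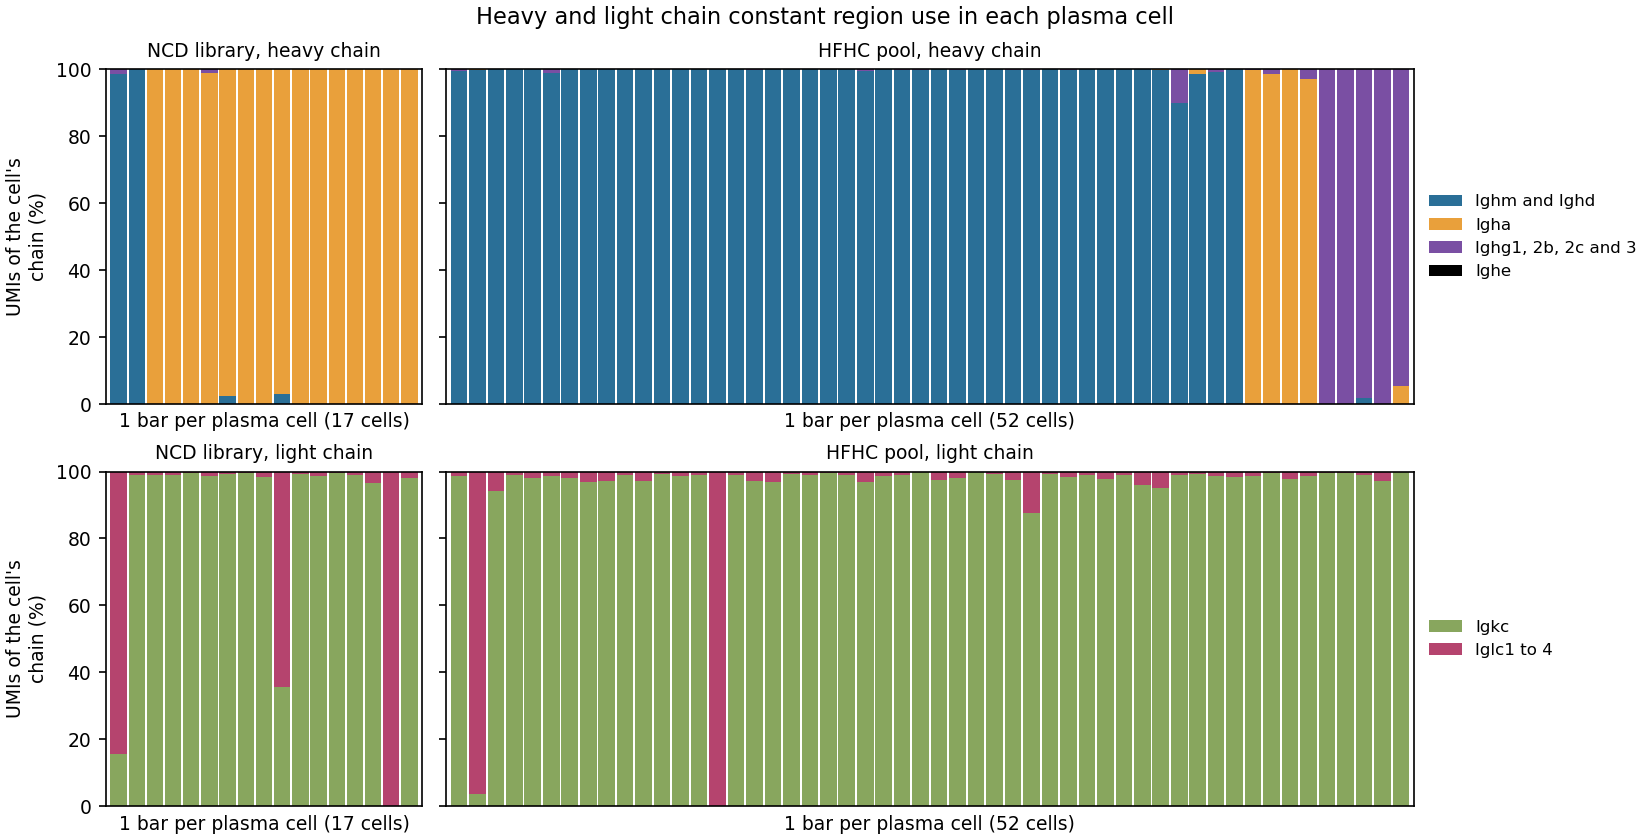
Percent of heavy chain (top) and light chain (bottom) constant region UMIs by isotype or light chain type in each plasma cell, 1 bar per cell, for the NCD library (left, 17 cells) and the HFHC pool (right, 52 cells). Most NCD cells are filled by Igha and most cells of the HFHC pool by Ighm, and Igkc fills nearly all light chain bars.

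The number of heavy chain UMIs differed widely among plasma cells. In the 15 IgA cells of the NCD library Igha ranged from 149 to 1361 UMIs with a median of 444. In the 4 IgA cells of the HFHC pool it was 3096, 2086, 1599 and 381 UMIs. In the 43 IgM cells of the pool Ighm ranged from 353 to 2372 UMIs with a median of 1350, and the 2 IgM cells of the NCD library held 339 and 270 UMIs. All IgM cells of the NCD library thus lay below each IgM cell of the pool, while the Igha ranges overlapped. Plasma cells of the pool were also more deeply covered, with a median of 11955 UMIs per cell against 7062.

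The IgG plasma cells were few and used 2 genes. Ighg2b led in 2 cells of the HFHC pool, with 3760 and 856 UMIs, so that 1 cell held 79.31% of the Ighg2b UMIs of all plasma cells of that library. Ighg2c, an IgG gene outside the 9, led in 3 cells with 2614, 1654 and 1506 UMIs. No plasma cell was led by Ighg1, which gave 11 UMIs in 1 IgA cell of the NCD library and 1 UMI in each of 2 cells of the pool. Ighd, the constant region of IgD, had 0 UMIs in the NCD plasma cells and 3 UMIs in 2 plasma cells of the pool. Both Ighd values are at or below 3 UMIs, so no ratio is given.

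Kappa light chains prevailed in both libraries. A light chain type was given with at least 10 light chain UMIs of which 1 type held at least 70%, and lambda led in 2 of 16 assigned NCD plasma cells (12.5%, 1.551 to 38.35) and in 2 of 52 cells of the HFHC pool (3.846%, 0.4692 to 13.21). The 2 lambda cells of the NCD library were led by Iglc2, with 561 and 284 UMIs. Those of the pool were led by Iglc1, with 2819 and 2092 UMIs, and the first of these also held 726 UMIs of Iglc3. A single NCD cell had no leading type, with 423 UMIs of Igkc, 461 of Iglc2 and 296 of Iglc1. Iglc1 stood at 3370 CPM in NCD plasma cells, where 1 cell held 76.88% of its UMIs, and at 8926 in those of the pool, where 1 cell held 49.67%. Iglc2 stood at 12370 CPM in NCD plasma cells, with 39.7% of its UMIs in 1 cell, and at 2512 in the pool, where it was found in all 52 cells and the highest held 6.763%.

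Jchain was found in all 69 plasma cells, including those of IgG, whose heavy chains do not take up the joining chain. It ranged from 52 to 427 UMIs with a median of 127 in the NCD library, and its range was 3 to 1187 with a median of 398 in the HFHC pool, where 2 IgM cells held 3 UMIs each. Per 100 heavy chain UMIs, the median was 27.74 in the 15 IgA cells of the NCD library (15.51 to 40.94). It was 27.59 in the 43 IgM cells of the pool (0.5181 to 67.53), 36.32 in its 4 IgA cells (22.09 to 55.98) and 11.8 in its 5 IgG cells (2.772 to 25.3). The ranges of all isotypes of the pool overlapped. Cells of 1 library are not replicates, so these ratios were not tested.

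**Figure D3:**
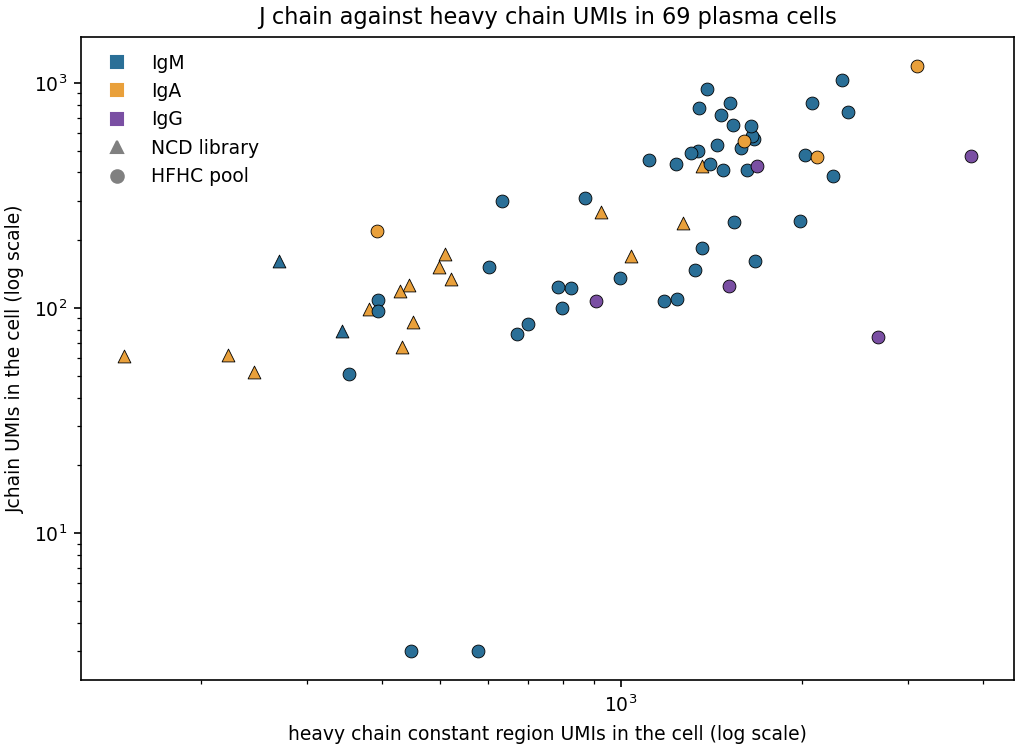
Jchain UMIs against heavy chain constant region UMIs of the same cell, both on log axes, in each of 69 plasma cells, coloured by isotype, with triangles for the NCD library and circles for the HFHC pool. The 5 IgG cells hold 74 to 473 Jchain UMIs beside 907 to 3823 heavy chain UMIs, and 2 IgM cells of the pool hold 3 Jchain UMIs each.

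In the B cells the unswitched isotypes Ighm and Ighd prevailed, and their levels lay close together in the 2 libraries. Ighm stood at 6467 CPM (6356 to 6580) in the NCD library, against 7404 (7302 to 7508) in the HFHC pool, and Ighd at 2203 (2138 to 2269) and 1933 (1881 to 1986). Igkc stood at 15969 and 18836 CPM, Iglc1 at 301.5 and 387.5, and Iglc2 at 1102 and 1068. Igha was low, with 20.6 CPM in NCD B cells and 59.22 in those of the pool, Ighg1 had 9 and 13 UMIs in all, and Ighg2b stood at 10.05 and 96.61 CPM. Jchain had 4 UMIs in the 1373 B cells of the NCD library, against 1499 in the 855 of the pool.

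Set against each other, 3 of the 8 members with at least 100 UMIs over both libraries were at least 2-fold higher in B cells of the HFHC pool and 0 were 2-fold lower, where 4.24% and 2.13% of all 6136 such genes were. Without replicates these are ratios of 2 libraries, computed with 1 UMI added to each sum, and the median log2 ratio over all these genes was 0.02. Ighg2b was higher by a log2 ratio of 3.20, and by 3.21 without the cell that held most of its UMIs in each library. The log2 ratio of Igha was 1.50 but 0.10 without its highest cell, which held 103 of the 160 UMIs in the pool. That of Jchain was 7.79, and 3 cells with 331 to 625 Jchain UMIs each held 1391 of the 1499 UMIs in the pool. Outside these 3 cells Jchain stood at 40.48 CPM, with a UMI in 23 of 852 cells. With classes from the marker UMIs of each cell, the log2 ratios were 3.71 for Jchain, 0.05 for Igha and 3.81 for Ighg2b. Only 2 members then passed 2-fold. The log2 ratios of Ighm (0.20), Ighd (-0.19), Igkc (0.24), Iglc1 (0.36) and Iglc2 (-0.05) were all within 2-fold. Ighg1 fell under the limit of 100 UMIs.

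In plasma cells 7 of the 9 members passed that limit. Ighm (log2 ratio 3.95), Ighg2b and Iglc1 (1.40) were at least 2-fold higher in the HFHC pool and Igha (-2.77) and Iglc2 (-2.30) at least 2-fold lower, beside 10.8% and 8.41% of all 749 genes past the same limit. Iglc3, whose reads may be hard to keep apart from those of Iglc2, went the other way (1.22, and 0.49 without its highest cell in each library). As Ighg2b had no UMI in NCD plasma cells, its level in the pool was at least 283.9-fold higher, taking 3 UMIs over the group as the floor. This bound holds for these 17 cells: with classes taken from the marker UMIs of each cell, 2 of 21 NCD plasma cells with an isotype were IgG and the log2 ratio of Ighg2b was 4.69, against 9.73 with 1 UMI added. The log2 ratio was then 1.03 for Jchain and -1.45 for Iglc2. Without the cell that held most of a gene's UMIs in each library, the log2 ratio was 4.98 for Ighm, 7.46 for Ighg2b, 2.51 for Iglc1, -3.33 for Igha and -1.67 for Iglc2. Igkc (0.15) and Jchain (0.52) were within 2-fold in these cells, and the median over all genes was -0.13. With 17 plasma cells in 1 library, each ratio depends on the isotypes of few cells.

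Counted cell by cell, few B cells were switched. With at least 3 heavy chain UMIs of which 1 isotype held 70%, 4 of 1326 assigned B cells of the NCD library (0.3017%, 0.08225 to 0.7706) and 5 of 840 of the HFHC pool (0.5952%, 0.1935 to 1.384) carried IgG or IgA. All 4 switched cells of the NCD library were IgG, and the pool had 4 IgG cells and 1 IgA cell. The switched IgG cells held a median of 7 heavy chain UMIs in the NCD library, against 36.5 in the pool. With at most 10% mitochondrial UMIs the switched shares were 0% and 0.5935%, and with 90% asked of an isotype 0.1528% and 0.6039%. The share of lambda cells was 57 of 1272 (4.481%, 3.411 to 5.767) and 41 of 816 (5.025%, 3.629 to 6.755). Both intervals of each pair overlapped. With 90% of UMIs asked of a type, the lambda shares were 7.418% and 7.933%, beyond these intervals.

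Ighd was detected in most B cells. A UMI of Ighd was found in 87.4% of NCD B cells and 92.75% of those of the HFHC pool, whose median depths were 1309 and 2627 UMIs. After each cell was thinned to 1000 UMIs, it was found in 837 of 1020 cells (82.06%, 79.56 to 84.37) and 682 of 853 (79.95%, 77.11 to 82.59), and 353 and 2 shallower B cells were left out. In T cells, which do not normally express Ighd, the thinned share was 0.7051% and 0.835%, and the unthinned 1.589% and 2.857%. The 2 intervals overlapped at 1000 UMIs. Thinned to 2000 UMIs the shares were 81.25% and 88.34%, but over 160 and 712 cells, with 1213 and 143 shallower B cells left out, so that these shares come from other cells as well as another depth.

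Among B cells the balance of Ighd and Ighm differed by sub-cluster. Of the UMIs of both genes, Ighd held 29.69% (28.79 to 30.6) in NCD cells of sub-cluster 0 and 32.72% in cells of the pool of sub-cluster 1, which hold most B cells of each library (883 of 1373 and 532 of 855) and are led by Fcer2a, Cr2 and Cd79a among others. Sub-cluster 4, led by Ms4a1, Vpreb3 and Fam129c, held 9.98% and 11.18%. Sub-cluster 6, led by Ms4a1, Blk and with Bhlhe41 and Zbtb32 among its leading genes, held 11.9% and 5.038%. Its cells in the pool had 13312 CPM of Ighm and 706.3 of Ighd, against 5284 and 2570 in sub-cluster 1 of the same library. Sub-cluster 2 held 26.51% in the NCD library, against 10.86% in the pool, where 3 of its cells had at least 20 Jchain UMIs and the share without them was 27.81%. The order of sub-clusters 4 and 6 below sub-clusters 0 and 1 was the same in both libraries. These genes took no part in the clustering, but other genes of the same cells did, so the sub-clusters give a description and no test.

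**Figure D4:**
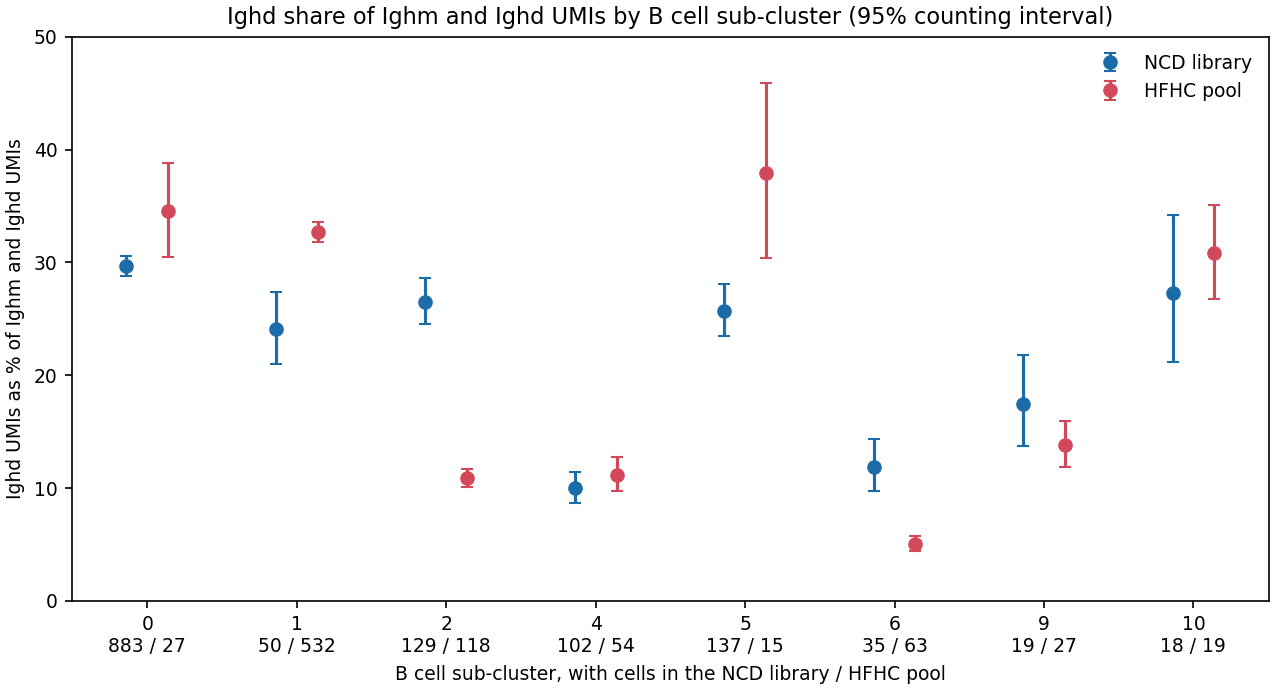
Ighd as a percent of the UMIs of Ighd and Ighm in each B cell sub-cluster and library, with exact binomial 95% intervals that cover counting error only. Sub-clusters 4 and 6 lie between 5.038% and 11.9% in both libraries, below sub-clusters 0 and 1.

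Outside B and plasma cells, Igkc and Ighm were found at low levels in T cells, hepatocytes and Kupffer cells, while Ighg1 and Ighg2b had 0 UMIs in several classes, T cells of the NCD library among them. Igkc in T cells stood at 76.55 CPM in the NCD library, against 420 in the HFHC pool, 0.4794% (0.4342 to 0.528) and 2.23% (2.16 to 2.301) of its level in B cells of the same library. A single T cell held 23.06% of these Igkc UMIs in the NCD library, against 39.87% in the pool, and the intervals do not cover this spread among cells. Without the 6 and 18 T cells that held 20 or more UMIs of the 9 genes, Igkc was 0.2652% and 0.984% of its B cell level. With no upper gene limit on the cells it was 3.603% and 13.23%. In that last setting only 13 and 43 of the plasma cells kept their class. A cluster led by Pclaf and Top2a, with a plasma cell score of 1.169, was named T cells there. Its part in these values was not tested. In barcodes under 200 genes, which the filter left out, Igkc stood at 189.2 and 766 CPM. Igkc stood at 141.4 and 1102 CPM in hepatocytes and at 116.5 and 263.6 in Kupffer cells, and without the cells of 20 or more UMIs of the 9 genes at 88 and 227.7 and at 50.42 and 109.5, higher in the pool each time. In plasmacytoid dendritic cells the order was the opposite, with 406 and 363.6 CPM in all cells and 294.1 and 174.2 without those cells. The pool also held more plasma cells, with a higher median of UMIs per cell, and the part of this in the difference was not tested.

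The make-up of these low counts differed between the libraries. In cells under 20 UMIs of the 9 genes, Igha made 7.543% of the members' UMIs in Kupffer cells and 5.211% in hepatocytes of the NCD library, against 2.131% and 1.603% in the HFHC pool. Over all B cells Igha made 0.07899% and 0.1952%, and 0.07148% and 0% in the few B cells under that limit. In the same Kupffer cells and hepatocytes Jchain made 1.078% and 1.117% in the NCD library, against 3.73% and 2.943% in the pool. Ighd, which plasma cells hardly hold, made 4.957% and 7.196% in the NCD library, against 1.776% and 1.908% in the pool. The shares of Igha and of Ighd thus had the opposite order of that of Jchain.

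Ighm did not keep 1 ratio to Igkc in all classes. All B cells held 0.405 Ighm UMIs per Igkc UMI in the NCD library, against 0.3931 in the HFHC pool. The 214 and 21 B cells under 20 UMIs of the members held 0.6192 and 0.7925. In cells under 20 UMIs of the members, hepatocytes held 0.4156 and 0.2457, Kupffer cells 0.3538 and 0.2165, and barcodes under 200 genes 0.3462 and 0.2915. T cells held 5.471 and 1.547, conventional dendritic cells 7.204 and 3.279, NK cells and ILC1 3.97 and 1.716, and plasmacytoid dendritic cells 5.442 and 8.58. Neutrophils held 2.334 and 1.013, and monocytes and macrophages 2.731 and 1.161. In these 6 classes the ratio was thus above that of all B cells and of B cells under the limit, in both libraries. In hepatocytes and Kupffer cells it lay near or below that of all B cells. Over all cells of each class, NK cells and ILC1 of the NCD library held 0.2698, below all B cells. Every other value of the 6 classes over all cells stayed above that of all B cells. Endothelial cells under the limit held 0.5408 and 0.3392, below B cells under the same limit in both libraries. Against all B cells these values were above in the NCD library and below in the pool. Over all endothelial cells the ratio was 0.1272 and 0.2017, below all B cells in both. Cells of unnamed clusters under the limit held 2.93 and 0.4237.

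**Figure D5:**
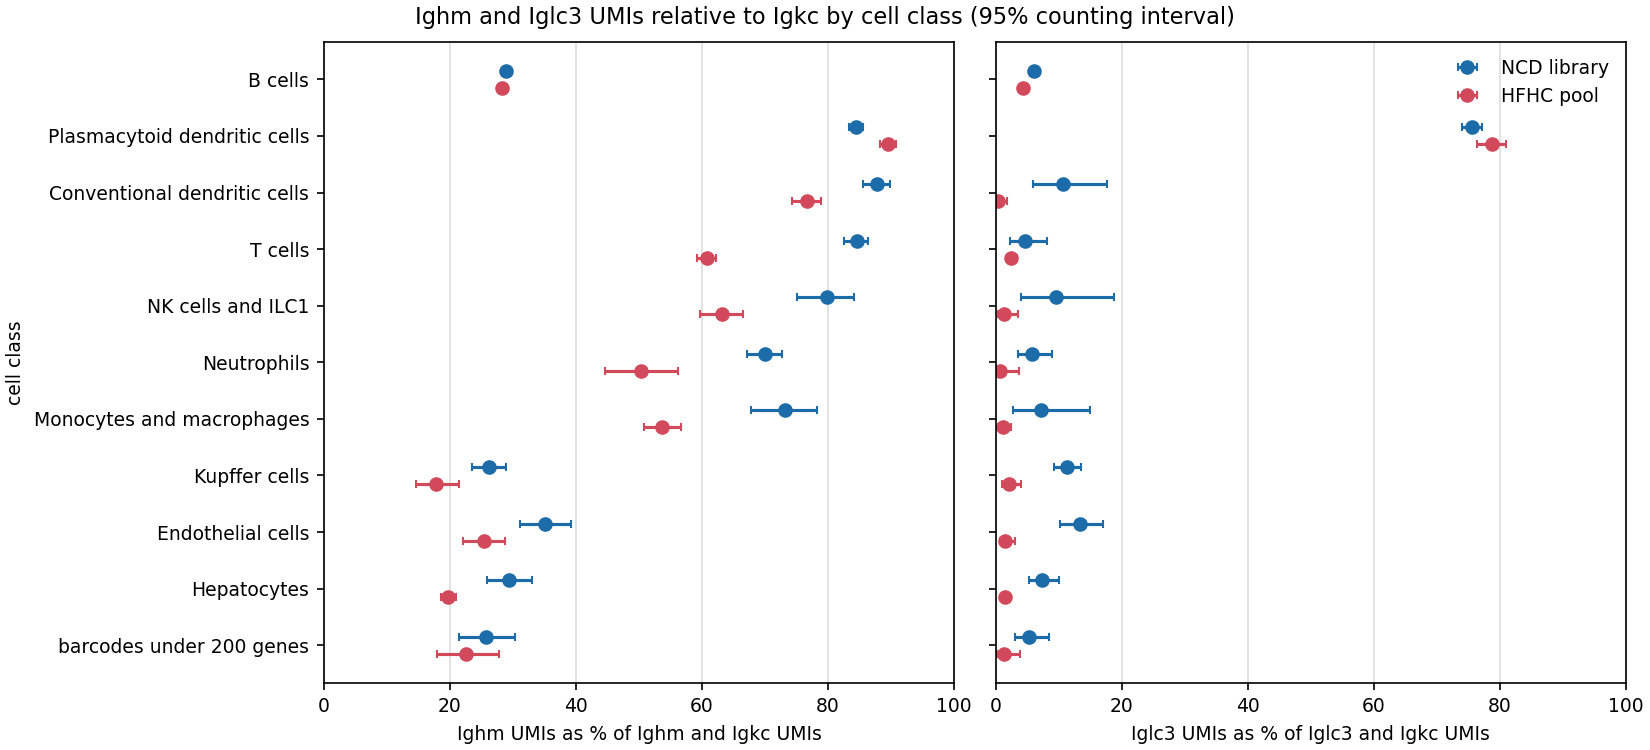
Ighm UMIs as a percent of Ighm and Igkc UMIs (left) and Iglc3 UMIs as a percent of Iglc3 and Igkc UMIs (right) by cell class and library, in cells under 20 UMIs of the members except B cells, where all cells are used, with exact binomial 95% intervals. Ighm lies at 28.83% and 28.22% in B cells, 84.55% and 60.74% in T cells, 84.48% and 89.56% in plasmacytoid dendritic cells and 26.13% and 17.8% in Kupffer cells of the NCD library and HFHC pool.

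Plasmacytoid dendritic cells, the interferon-producing dendritic cells, held the most Ighm of all classes outside the B lineage. Ighm stood at 1626 CPM there in the NCD library, against 1605 in the HFHC pool. After thinning to 1000 UMIs it was found in 79.83% (76.69 to 82.73) and 78.93% (73.47 to 83.71) of these cells, against 19.74% and 21.03% of T cells and 2.782% and 3.521% of Kupffer cells. Iglc3 was found in 55.01% and 45.21% of thinned plasmacytoid dendritic cells, against 0.1659% and 0.6362% of T cells. All plasmacytoid dendritic cells together held 2.306 and 1.906 Iglc3 UMIs per Igkc UMI, and those under 20 UMIs of the members 3.099 and 3.7, while all B cells held 0.06438 and 0.04486. Jchain was near 0 in them, with 1 UMI in 721 cells and 8 UMIs in 261 cells, and Iglc2 stood at 70.72 and 37.84 CPM. Their values of Iglc2 and Iglc3 share the limit on near-identical genes given above.

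Some high values in other classes came from single cells. An NK and ILC1 cell of the NCD library held 4105 UMIs of Igkc, 862 of Ighm and 439 of Jchain, and Igkc in that class was 4092 CPM in all cells and 64.78 CPM in those under 20 UMIs of the members. An endothelial cell of the same library held 782 UMIs of Igha, and an endothelial cell of the HFHC pool 1877 UMIs of Ighg2c. Kept cells outside B and plasma cells with at least 20 Jchain and 10 heavy chain UMIs numbered 2 in the NCD library, against 14 in the pool. With these and the 3 B cells of that kind counted as plasma cells, 16 of 19 cells were IgA in the NCD library (84.21%), and 5 of 69 (7.246%) were IgA and 57 (82.61%) IgM in the pool.

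The genes around antibody production were described by their ratio of plasma over B cells within each library, among genes with at least 20 UMIs over both classes. Of 18 listed genes of antibody folding and secretion, 17 of the 17 with enough UMIs were at least 2-fold higher in plasma cells of the NCD library, against 18 of 18 in the HFHC pool, where 10.9% and 6.93% of all genes were. Derl3, which takes part in the disposal of misfolded proteins, was higher by log2 ratios of 7.10 and 5.96, and Hsp90b1, a chaperone of the endoplasmic reticulum, by 3.91 and 4.04. Some of these genes, such as Derl3 and Creld2, also serve as plasma cell markers here, so that their direction was set by the naming of the class. Of 15 B cell receptor genes, which pass on or tune the signal of surface antibody, 13 and 11 were at least 2-fold lower and 0 higher, beside 25.8% and 44.8% of all genes. Both classes were named from B and plasma cell markers, so the naming may have set part of this direction too. The ratios also divide by all UMIs of a class. Immunoglobulin genes and Jchain held 2.732% (NCD library) and 3.191% (HFHC pool) of these in B cells, against 34.52% and 41.9% in plasma cells. This leaves fewer of the counted UMIs to other genes, in all lists here and below. The median log2 ratio over all genes was -0.34 and -0.86. The part of this share in the counts of lower genes was not tested. Cd22, an inhibitory co-receptor, stood at 715.5 CPM in B cells and had 0 UMIs in plasma cells of the NCD library, with 900.9 and 3.145 CPM in the pool.

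Of 10 transcription factors of B and plasma cells, 4 were higher and 5 lower in plasma cells of the NCD library, against 3 and 5 in the HFHC pool. Over all genes 10.9% were higher and 25.8% lower in the first and 6.93% and 44.8% in the second, so that the share of lower factors in the pool was near that of all genes. Pax5, which keeps B cell identity, stood at 965.3 and 623 CPM in B cells and had 0 UMIs in plasma cells of both libraries. Prdm1, which drives the plasma cell program, stood at 262.6 and 191.9 CPM in plasma cells and 5.527 and 19.62 in B cells, and Xbp1, a factor of the secretory pathway, at 1304 and 1549 against 65.82 and 92.17. These 3 genes are markers used in naming. Of 8 measured genes of class switching and the germinal centre, 2 had enough UMIs in the NCD library (1 higher, 1 lower) and 8 in the pool (2 higher, 4 lower, beside 44.8% of all genes lower there). Of the 4 measured receptors and transporters of immunoglobulins, 0 were higher and 2 were lower in plasma cells of the NCD library, against 3 in the pool, among them Fcmr, the IgM receptor and a B cell marker here, at 1445 and 653.3 CPM in B cells and 17.51 and 58.19 in plasma cells.

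Genes outside the immunoglobulin loci with the most similar levels to each member were sought over 26 points, 13 classes in 2 libraries, among 13268 genes. Points of 1 library share its depth, and cells of the B lineage are among the points, so Pearson's r of log2(CPM + 1) is given as a description. Ighd was most like Fcer2a (0.940), Pax5 (0.938) and Cr2 (0.903), and Ighm most like Tnfrsf13c (0.881). Igha (0.907) and Jchain (0.901) were most like Dnm3, each followed by Derl3 and Tnfrsf17. Igkc (0.907), Iglc1 (0.910) and Iglc2 (0.941) were most like Pou2af1, a coactivator of immunoglobulin transcription. Ighg1, nearly absent from the kept cells, was most like Bhlhe41 (0.869), and Ighg2b most like Stac2 (0.886). Pax5, Fcer2a, Tnfrsf13c, Derl3, Tnfrsf17 and Pou2af1 are also among the markers used in naming the classes.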

How the data were processed

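The deposited tables hold counts: whole-number UMIs per cell and gene, which the authors made with the BD Rhapsody WTA Analysis Pipeline 1.10.1 on GENCODE annotation M19 of GRCm38, per the file headers and the submitters' processing notes. The aligner settings are not given in the sources used here. The table of the NCD library carries no sample name and was mapped by elimination, and the sample tag library was not used. The 9 genes and the gene lists were chosen with earlier results of these data known. Named genes were the 9 members, the other constant region genes in both tables, the 3 genes most alike each member and up to 4 examples per list, of which the report gives those with the largest ratio or a role it describes. Mef2b, Gp1bb and Fcamr were not found in the tables.

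Cells with 200 to 4000 genes and at most 25% mitochondrial UMIs were kept. After immunoglobulin genes and Jchain were taken out, libraries were normalized with SCTransform (sctransform 0.4.2, 4000 variable genes, mitochondrial share regressed out), integrated by reciprocal PCA in Seurat 5.3.0 (R 4.3.3, 30 components, 20 neighbours, seed 42) and clustered at a resolution of 0.8. Clusters named B or plasma cells, and unnamed clusters with a B or plasma cell score of at least 1, were clustered again at 0.5. In the first clustering no cluster was named plasma cells, and an unnamed cluster with a plasma cell score of 2.52 entered in this way. Classes were named from markers, with a score of at least 1 and at least 3 markers detected. Scrublet, as run in scanpy 1.11.5, marked as doublets 8.173% of what was kept from the NCD library (1908) and 1.997% from the HFHC pool (392). They were kept, as none was a plasma cell, and were left out in an alternative.

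UMIs were summed per class and library and divided by all UMIs of that class (CPM), with exact Poisson 95% intervals. UMIs count molecules, so no gene length enters. Shares of cells have exact binomial (Clopper-Pearson) 95% intervals. A floor of 3 counts was used where a sum was 0. Ratios used 1 added UMI and genes with at least 100 UMIs over both libraries. The ratio and share steps were tested on simulated data. No test between libraries was possible with 1 library per group. Sequences and positions came from GRCm38 with GENCODE vM21.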

Additional observations from a re-analysis of the deposited data

Results flagged for a closer look

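Ighg1 was nearly absent from the kept cells of the HFHC pool, with 50 UMIs, but 2794 further UMIs lay in cells that the filters left out. Of these, 2774 were in 1 cell of 4225 genes and 21292 UMIs, above the limit of 4000 genes, which also held 4066 UMIs of Igkc and 530 of Jchain and was not called a doublet by Scrublet. It was the single cell led by Ighg1 among those with at least 20 Jchain and 10 heavy chain UMIs in either library. The NCD library held 28 Ighg1 UMIs, of which 0 were in left-out cells.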

How the results depend on the processing

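No paired analysis was possible because each group has 1 library. Of 196 values of the main results under an alternative, 179 were counted as unchanged, 17 moved beyond their counting interval and 0 reversed. Most are shares, which have no direction to reverse. Some had no room to move: no plasma cell was a Scrublet doublet, and each held at least 149 heavy chain UMIs. Resolutions of 0.3 and 1.0 gave the same numbers of B, plasma and T cells. Counts of members past 2-fold have no such interval and were counted as unchanged at 2 for 3 in B cells and 6 for 5 in plasma cells. The shares of IgA, IgM, IgG and lambda plasma cells moved beyond their intervals under none of the alternatives run. With at most 10% mitochondrial UMIs, which left 524 and 348 B cells, the switched share of NCD B cells was 0%, the thinned Ighd share in the HFHC pool 74.93% and Igkc in T cells of the pool 2.027% of its B cell level. With no upper gene limit, where 13 and 43 of the plasma cells kept that class, Igkc in T cells was 3.603% and 13.23%. It was 0.2803% and 2.022% without Scrublet doublets, 1.643% in the pool with classes from the marker UMIs of each cell, 0.3143% and 1.231% with immunoglobulin genes kept in the clustering, and 0.2652% and 0.984% without T cells of 20 or more UMIs of the 9 genes, an alternative chosen after seeing the data. With 90% of UMIs asked of a type, lambda B cells were 7.418% and 7.933%. Thinned to 500 UMIs, Ighd was found in 64.2% and 61.75% of B cells, and thinned to 2000 in 81.25% and 88.34%, with 1213 and 143 B cells left out. The causes of these moves were not tested. Of 89 ratios of single genes, 33 moved by more than their counting error and 0 of those called at 2-fold reversed, while the small log2 ratio of Ighm in B cells was -0.04 with classes from marker UMIs. There Igha in B cells was 0.05 and Jchain 3.71, and in plasma cells Ighg2b was 4.69 and Jchain 1.03. Counting all cells with many Jchain and heavy chain UMIs as plasma cells, and leaving out the highest cell of each gene, were also chosen after seeing the data. The number of plasma cells limits the rare isotypes: at 0 of 17 cells, the exact interval of the IgG share reaches 19.51%.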

Other observations

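The variable region genes of the plasma cells, which were not chosen as members, could be read beside the isotypes. A V gene was taken as that with the most UMIs in a cell, with at least 3 UMIs, and reads of near-identical V genes may be split or merged, so a shared pair of V genes is not a clone. In the HFHC pool 50 of 52 plasma cells had both a heavy and a light chain V gene, in 36 distinct pairs, and 19 cells lay in 5 pairs seen in more than 1 cell. The V gene was not checked against the light chain type. An IgA cell of the pool with 97.89% kappa UMIs was given Iglv1 from 13 UMIs, so its pair is doubtful. Ighv14-4 with Igkv6-20 occurred in 6 cells, all IgM. Ighv1-53 with Igkv3-2 also occurred in 6 cells, of which 5 were IgM and 1 IgA. Ighv1-26 with Igkv4-91 occurred in 3 IgM cells, and Ighv8-8 with Iglv1 in both lambda cells of the pool. In the NCD library 14 of 17 plasma cells had both V genes, in 13 pairs, and the only pair seen more than once was Ighv1-26 with Igkv1-110, in 2 IgA cells. No pairs were compared between the libraries by a test, since the number of mice behind each library is not given in the sources used here.

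Cells of the HFHC pool that the filters left out held further cells with at least 20 Jchain and 10 heavy chain UMIs. With every such cell, kept or not, the pool held 80 cells of this kind, of which 65 were IgM (81.25%), 6 IgA (7.5%) and 9 IgG (11.25%).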
